A study of Mus musculus with 12 samples.

Results

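Gpi1, Aldoa, Eno3 and Ldha encode enzymes of glycolysis and are 4 of the 8106 genes that could be named on these Illumina bead arrays, read by 5 of the 46628 probes. Every probe whose identifier carries the NCBI gene number of one of these genes was taken, with no choice among probes by level or by difference. The genes themselves were chosen with earlier results of these data known. Aldoa, Eno3 and Ldha each had 1 probe and Gpi1 had 2. All 5 probes lay above the background limit on all 12 arrays, so none was lost to the filter on dim probes.

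Glycolysis breaks glucose down to pyruvate in the cytosol and yields ATP, and lactate is made when pyruvate is reduced instead of entering the mitochondria. Gpi1 (glucose phosphate isomerase) turns glucose phosphate into fructose phosphate, Aldoa (aldolase A) splits the fructose bisphosphate made from it, Eno3 (beta-enolase, best known as the muscle form) makes phosphoenolpyruvate near the end of the pathway, and Ldha (lactate dehydrogenase A) interconverts pyruvate and lactate. Tumours are widely described as using glycolysis heavily even where oxygen is present, and in the gut epithelium the enzymes of the pathway occur as isozymes whose use differs between crypt and surface cells and along the gut.

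All 12 samples came from Apcmin mice, which carry a mutant copy of the tumour suppressor Apc and form intestinal adenomas. They make up 6 groups of 2 arrays: tumours and normal tissue of Notch-activated mice (Vil-Cre;RosaN1+/RN1), of Notch-inactivated mice (Vil-Cre;Mib1f/f) and of mice labelled wt. In the Notch-activated mice Villin-driven Cre switches on a Rosa transgene of active Notch1. In the Notch-inactivated mice it deletes Mib1, a ubiquitin ligase that cells need to send Notch signals. Cre under the Villin promoter acts in gut epithelium, so stroma, blood and muscle cells in a sample keep their own Notch genes. The labels do not give the gut segment, the age, the number of animals behind a sample, or whether wild type mice carried Cre. Nor do they tell if both arrays of a group stem from separate animals. The p-values therefore cover only the spread seen between these arrays, possibly technical, and the small number of arrays limits precision. The study's question was the part of Notch in the growth of colorectal tumours.

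The deposited values were used as they stand and read as quantile normalised log2 signals, with a median of 5.54 and a maximum of 14.2 on every array. The background limit, the 95th percentile of 51 probes for foreign sequences, lay between 5.67 and 5.73 on tumour arrays and between 5.66 and 5.99 on normal arrays. The 21891 probes above it on at least 2 arrays were tested. Replicate arrays of a group correlated across these probes at r between 0.984 and 0.991. The transgene's eGFP probe read 9.50 and 9.73 in Notch-activated tumours and 9.76 and 10.2 in Notch-activated normal tissue, against 5.12 to 5.48 on all other arrays. Mib1 averaged 6.23 in Notch-inactivated tumours against 6.75 in wild type tumours, and 6.12 in Notch-inactivated normal tissue against 6.40 in wild type normal tissue, with no overlap in either tissue. Epithelial keratins (Krt8, Krt18 and Krt19, 3 measured of 9 listed markers) averaged between 12.07 and 12.76 on every array.

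On GRCm38.p6, Gpi1 lies at chr7:34201327-34230336, Aldoa at chr7:126795234-126800994 and Ldha at chr7:46842274-46855627, and Eno3 lies at chr11:70653125-70662513. For each gene a window from 250 bases before to 50 bases after an annotated start is printed. The reason is that Eno3 changed by more than Gpi1, Aldoa and Ldha did. The printed windows of Aldoa, Eno3 and Ldha lie within the gene intervals given above, away from their edges. Capitals mark ACGTG or GCGTG on either strand, the core letters bound by hypoxia-inducible factors, which are known to raise glycolysis genes. The sequences are RefSeq's, each in the direction of its gene.
Gpi1 (chr7:34230287-34230586, minus strand): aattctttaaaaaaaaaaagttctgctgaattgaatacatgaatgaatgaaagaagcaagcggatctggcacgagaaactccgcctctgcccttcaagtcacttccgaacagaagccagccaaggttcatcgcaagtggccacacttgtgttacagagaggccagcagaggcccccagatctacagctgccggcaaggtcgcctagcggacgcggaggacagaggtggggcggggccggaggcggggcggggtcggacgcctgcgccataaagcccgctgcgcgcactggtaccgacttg
Aldoa (chr7:126799205-126799504, minus strand): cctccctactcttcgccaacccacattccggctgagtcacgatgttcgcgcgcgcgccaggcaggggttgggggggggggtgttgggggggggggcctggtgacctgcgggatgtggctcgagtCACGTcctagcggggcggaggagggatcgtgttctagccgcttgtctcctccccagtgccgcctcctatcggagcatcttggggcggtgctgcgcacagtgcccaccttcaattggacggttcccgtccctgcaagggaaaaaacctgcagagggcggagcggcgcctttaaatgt
Eno3 (chr11:70656926-70657225, plus strand): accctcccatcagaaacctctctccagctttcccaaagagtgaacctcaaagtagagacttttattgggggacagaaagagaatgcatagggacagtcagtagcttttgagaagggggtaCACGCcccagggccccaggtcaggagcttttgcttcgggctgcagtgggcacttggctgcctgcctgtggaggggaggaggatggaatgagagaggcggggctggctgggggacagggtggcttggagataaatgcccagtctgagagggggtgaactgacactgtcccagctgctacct
Ldha (chr7:46845554-46845853, plus strand): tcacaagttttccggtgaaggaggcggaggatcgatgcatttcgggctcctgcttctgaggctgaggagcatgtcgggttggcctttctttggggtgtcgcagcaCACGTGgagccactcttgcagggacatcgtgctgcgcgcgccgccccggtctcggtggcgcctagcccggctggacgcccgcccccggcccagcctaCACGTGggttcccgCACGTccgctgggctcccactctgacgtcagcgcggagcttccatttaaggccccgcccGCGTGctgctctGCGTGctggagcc

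The Ldha window held 7 matches, counted on both strands, which fall in 5 capital runs. Among them are 2 copies of CACGTG, the palindromic E-box, and each of these counts as ACGTG on both strands. The Aldoa window held 1 match and the Eno3 window held 1, while these letters did not occur in the Gpi1 window. Of all 32851 windows of 300 bases in the table, 43.8% held at least 1 of these cores, and 7.15% held CACGTG. The GC box GGGCGG, which 35.7% of windows hold, occurred 3 times in the Ldha and Aldoa windows and 2 times in the Gpi1 window, and it did not occur in the Eno3 window. The 4 windows differed in GC content, at 67.3% for Ldha, 65.7% for Aldoa, 57.3% for Gpi1 and 57% for Eno3, against a median of 52.7% over all windows. RefSeq gives 3 windows for Aldoa and 2 for Ldha, and a window with the most matches was printed for each. Of the Aldoa windows not printed, 1 held no match and no GC box, and the other held 1 match and 3 GC boxes. The Ldha window not printed held 2 matches, without CACGTG and without a GC box. The shares over all windows involve no such choice, so the printed windows are not directly comparable with them. A match describes letters only and was not tested against any measurement.

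Gpi1 acts first of the 4 enzymes. Its brighter probe read 11.37 and 11.45 in Notch-activated tumours, 11.15 and 11.11 in Notch-inactivated tumours and 11.17 and 11.08 in wild type tumours. In normal tissue it read 11.56 and 11.69 (Notch-activated), 11.69 and 11.55 (Notch-inactivated) and 11.13 and 11.42 (wild type). Tumour and normal arrays did not overlap in either Notch genotype, and in wild type mice they did, because one normal array lay between the tumour arrays. The whole range over 12 arrays was 0.61 on the log2 scale.

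The dimmer Gpi1 probe read 7.97 and 8.11 in Notch-activated tumours, 7.31 and 7.39 in Notch-inactivated tumours and 7.48 and 7.38 in wild type tumours. In normal tissue it read 8.14 and 8.13 (Notch-activated), 8.15 and 8.31 (Notch-inactivated) and 7.87 and 8.17 (wild type). On this probe the Notch-inactivated and wild type tumours lay below all other arrays, and the Notch-activated tumours lay among normal tissue. The sequences of the probes were not used here, so what part of the transcript each reads is unknown. Both Gpi1 names come from a class of identifiers whose reading as gene numbers is less firm than that of the other members. Hk1, Pfkm, Slc5a1, Mpc2, Pdhb, Pck1, Egln1, Mib1, Bcas1, Clca1, Klk1b27, Tpt1, Arl8b, Ikbkg, Acta2, Mylk and Synpo2 come from the same class.

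Aldoa read 12.10 and 12.30 in Notch-activated tumours, 11.92 and 11.89 in Notch-inactivated tumours and 11.73 and 11.91 in wild type tumours. In normal tissue it read 12.36 and 12.46 (Notch-activated), 12.16 and 12.31 (Notch-inactivated) and 12.09 and 12.25 (wild type). Within each genotype both tumour arrays lay below both normal arrays. Notch-activated tumours (mean 12.20) and wild type normal tissue (mean 12.17) overlapped.

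Eno3 read 7.23 and 7.11 in Notch-activated tumours, 7.59 and 8.29 in Notch-inactivated tumours and 8.01 and 8.06 in wild type tumours. In normal tissue it read 8.86 and 8.97 (Notch-activated), 11.15 and 11.11 (Notch-inactivated) and 11.49 and 11.38 (wild type). Eno3 was high only in normal tissue of Notch-inactivated and wild type mice, low in all tumours, and intermediate in Notch-activated normal tissue. Its range of 4.38 compares with 0.74 for Aldoa and 0.78 for Ldha. The Notch-inactivated tumours were the most variable group (7.94 ± 0.49, SD, n = 2), and apart from them and wild type tumours no neighbouring groups in the order of levels overlapped.

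Ldha read 13.15 and 13.20 in Notch-activated tumours, 12.81 and 12.67 in Notch-inactivated tumours and 12.84 and 12.90 in wild type tumours. In normal tissue it read 13.45 and 13.26 (Notch-activated), 13.14 and 13.45 (Notch-inactivated) and 12.98 and 13.23 (wild type). The 4 groups at the top of the order, all normal tissue and Notch-activated tumours, overlapped with their neighbours, and wild type and Notch-inactivated tumours lay below them without overlap. The Ldha probe was brighter than 99.5% of the probes tested and the Aldoa probe brighter than 98.6%. Whether differences of such bright probes are compressed was not tested. Nor could the probes of Aldoa, Ldha, Gapdh, Eno1 and Pgk1 be checked here for matches to pseudogenes, so their values may include signal from near-identical copies.

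**Figure D1:**
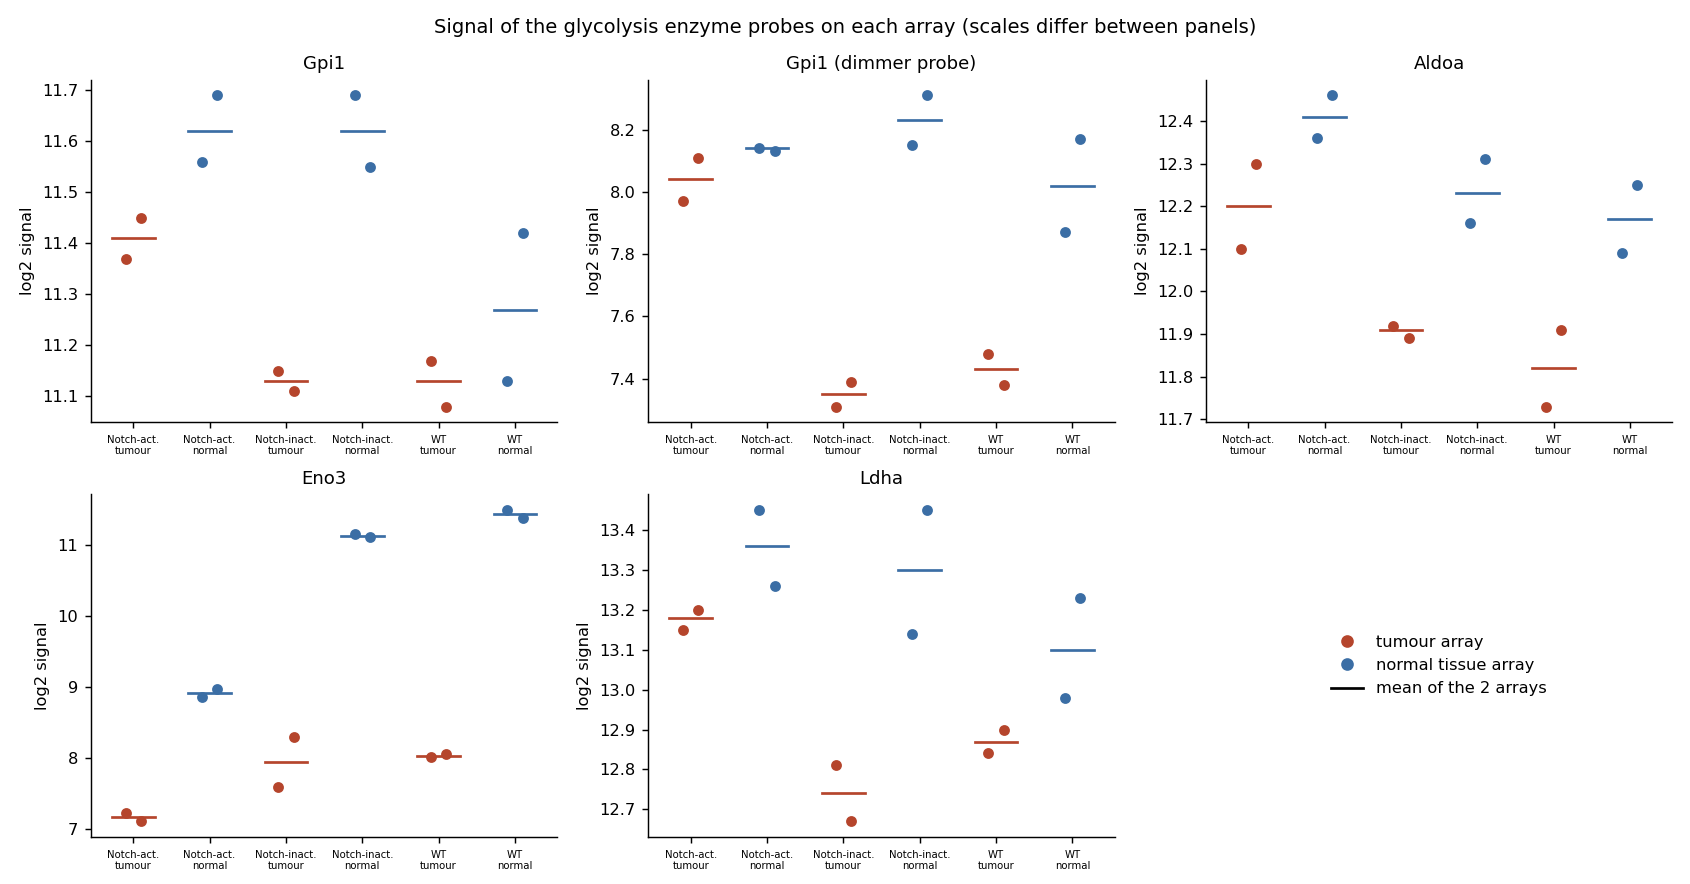
Log2 signal of each probe on each array, with 2 points per group and a line at their mean, and a scale of its own in each panel. Eno3 spans 7.11 to 11.49, with normal tissue of Notch-inactivated and wild type mice far above the other groups, while Gpi1, Aldoa and Ldha move within 1 log2 unit.

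In wild type mice, Eno3 and Aldoa fell in tumours. Eno3 averaged 8.03 ± 0.03 in tumours and 11.44 ± 0.07 in normal tissue (SD, n = 2 each), a log2 difference of -3.40 (SE 0.18, limma adjusted p = 8.72e-07) or 10.6-fold lower. Aldoa averaged 11.82 ± 0.13 in tumours and 12.17 ± 0.11 in normal tissue, a log2 difference of -0.35 (SE 0.11, limma adjusted p = 0.0245). The difference was -0.23 (SE 0.13, adjusted p = 0.16) for Ldha and -0.15 (SE 0.11, adjusted p = 0.299) for the brighter Gpi1 probe, neither of which passed the test. The dimmer Gpi1 probe did fall, by 0.59 (SE 0.12, adjusted p = 0.00221), so the probes of this gene differ in their call. Over all probes tested, 27.1% were lower and 24.5% higher in wild type tumours, and the 2 members called lower of 4 are read against that share. The Aldoa call rests on single arrays: its adjusted p was 0.139 without the second wild type normal array, 0.163 without the first wild type tumour array and 0.0609 when only these groups were fitted.

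In Notch-inactivated mice all 4 members fell in tumours, each by its brightest probe, where 26.9% of all probes were lower and 25.8% higher. Eno3 averaged 7.94 ± 0.49 in tumours and 11.13 ± 0.03 in normal tissue, a log2 difference of -3.19 (SE 0.18, limma adjusted p = 1.64e-06) or 9.14-fold lower. Ldha averaged 12.74 ± 0.10 in tumours and 13.30 ± 0.22 in normal tissue (log2 difference -0.55, SE 0.13, adjusted p = 0.00567). Gpi1 averaged 11.13 ± 0.03 in tumours and 11.62 ± 0.10 in normal tissue (-0.49, SE 0.11, adjusted p = 0.0049), and its dimmer probe fell by 0.88 (adjusted p = 2.05e-04). Aldoa averaged 11.91 ± 0.02 in tumours and 12.23 ± 0.11 in normal tissue (-0.33, SE 0.11, adjusted p = 0.0328). Aldoa's call was lost without the second normal array (adjusted p = 0.155), without either tumour array (0.0916 and 0.121) and when only these groups were fitted (0.0593).

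In Notch-activated mice Eno3 was the only member whose fall in tumours passed the test, against 13.6% of all probes lower and 12.8% higher. It averaged 7.17 ± 0.09 in tumours and 8.91 ± 0.07 in normal tissue, a log2 difference of -1.74 (SE 0.18, limma adjusted p = 2.79e-04) or 3.35-fold lower. The differences of the others were -0.21 for Gpi1 (adjusted p = 0.191), -0.10 for its dimmer probe (0.567), -0.21 for Aldoa (0.188) and -0.18 for Ldha (0.34). Of the called probes, 48.5% were higher in Notch-activated, 49.0% in Notch-inactivated and 47.4% in wild type tumours with the values as deposited, and 58.6%, 54.3% and 55.6% after cyclic loess. Averaged over the 3 genotypes, all 4 members fell. The average log2 difference was -2.78 for Eno3, -0.32 for Ldha, -0.30 for Aldoa and -0.28 for the brighter Gpi1 probe (limma adjusted p = 3.66e-08, 0.00363, 0.00239 and 0.00325). The dimmer Gpi1 probe gave -0.52 (limma adjusted p = 8.13e-05). In this average 36.1% of all probes were lower and 32.2% higher. In bulk samples, fewer cells of a type and less RNA per cell cannot be told apart.

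Whether a Notch genotype changed the tumour difference was tested directly. Eno3's difference between tumour and normal tissue was smaller in Notch-activated than in wild type mice by 1.66 log2 units (SE 0.26, limma adjusted p = 0.00348), a contrast in which 12.9% of all probes were called. The dimmer Gpi1 probe gave 0.49 (adjusted p = 0.0861), which passed without the first wild type normal array (0.64, adjusted p = 0.0347). For Aldoa, Ldha and the brighter Gpi1 probe this contrast was 0.14, 0.05 and -0.07, each with an SE of 0.16 to 0.19. No member was called in the same contrast for Notch-inactivated against wild type mice, where 0.763% of all probes were called. Its values were 0.21 for Eno3, -0.34 for the brighter and -0.29 for the dimmer Gpi1 probe, 0.02 for Aldoa and -0.32 for Ldha.

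Among tumours, active Notch went with more Aldoa and less Eno3. Against wild type tumours, Notch-activated tumours had 0.38 more Aldoa (SE 0.11, limma adjusted p = 0.0344) and 0.86 less Eno3 on the log2 scale (-0.86, SE 0.18, adjusted p = 0.00718). The dimmer Gpi1 probe was higher by 0.60 (SE 0.12, adjusted p = 0.00453). The brighter Gpi1 probe (0.28, SE 0.11, adjusted p = 0.106) and Ldha (0.31, SE 0.13, adjusted p = 0.131) did not pass, although both Notch-activated arrays lay above both wild type arrays. In this contrast 11.8% of all probes were higher and 11.0% lower. Aldoa's call was lost after cyclic loess (0.31, adjusted p = 0.0757), when only these groups were fitted (0.0877), and without the first wild type tumour array (0.224), the second Notch-activated tumour array (0.219) or either Notch-inactivated tumour array (0.0505). The comparisons with wild type tumours here and with wild type normal tissue above share the wild type tumour arrays.

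Against Notch-inactivated tumours, Notch-activated tumours had more Ldha (0.43, SE 0.13, limma adjusted p = 0.0388) and less Eno3 (-0.77, SE 0.18, adjusted p = 0.0126), with 11.7% of all probes higher and 11.5% lower. The dimmer Gpi1 probe was higher by 0.69 (adjusted p = 0.00215), while the brighter one (0.28, adjusted p = 0.11) and Aldoa (0.30, adjusted p = 0.0896) did not pass. Ldha's call was lost after cyclic loess (0.38, adjusted p = 0.0575) and without any 1 of the 6 tumour arrays (adjusted p between 0.053 and 0.215). Eno3's call was lost without the second Notch-activated tumour array (-0.70, adjusted p = 0.0748) and when only these groups were fitted (0.0833). Between Notch-inactivated and wild type tumours no member was called, in a contrast where 0.228% of all probes were. The differences there were 0.00 for the brighter and -0.08 for the dimmer Gpi1 probe. They were 0.08 for Aldoa, -0.09 for Eno3 and -0.13 for Ldha, all with an SE of 0.11 to 0.18.

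In normal tissue Eno3 was the member that moved with active Notch. It averaged 8.91 ± 0.07 in Notch-activated tissue, against 11.13 ± 0.03 in Notch-inactivated and 11.44 ± 0.07 in wild type tissue (SD, n = 2 each). It was thus 5.74-fold lower than in wild type tissue (log2 difference -2.52, SE 0.18, limma adjusted p = 3.97e-05), where 4.59% of all probes were lower and 4.02% higher. Against Notch-inactivated tissue it was 4.65-fold lower (-2.22, SE 0.18, adjusted p = 6.80e-05), with 4.89% of probes lower and 4.77% higher. Gpi1, Aldoa and Ldha differed from wild type tissue by 0.35, 0.24 and 0.25 (adjusted p = 0.0943, 0.252 and 0.316), and Gpi1 passed without the second wild type normal array (0.49, adjusted p = 0.049). Against Notch-inactivated tissue those differences were 0.00, 0.18 and 0.06. The dimmer Gpi1 probe gave 0.12 against wild type and -0.09 against Notch-inactivated tissue (limma adjusted p = 0.647 and 0.697). Between Notch-inactivated and wild type normal tissue no member was called, in a contrast where 4.41% of all probes were. Eno3 gave -0.30 (SE 0.18, adjusted p = 0.428), Gpi1 0.35 (adjusted p = 0.127), its dimmer probe 0.21 (0.39), Ldha 0.20 and Aldoa 0.06.

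**Figure D2:**
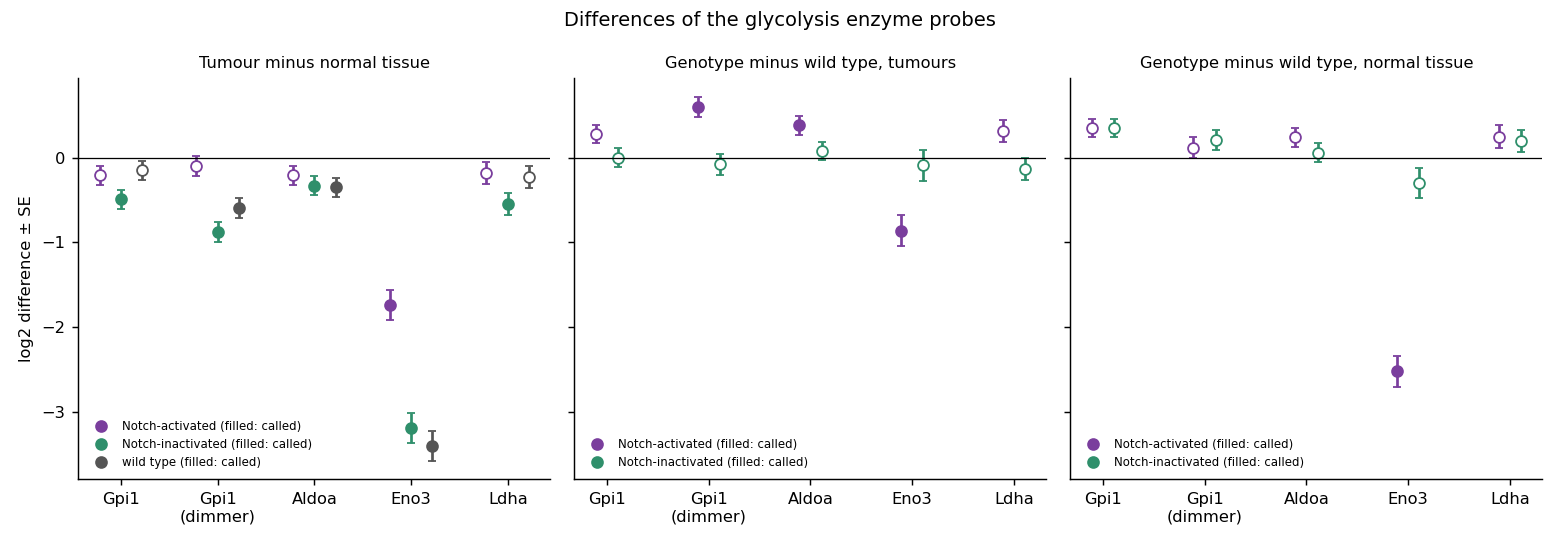
Log2 differences of the 5 probes with their SE (bars) for tumour minus normal tissue in each genotype, and for each Notch genotype minus wild type in tumours and in normal tissue. Filled points passed the test and open ones did not. Eno3 reaches -3.40 and, with active Notch in normal tissue, -2.52, while the other probes lie between -0.88 and 0.60.

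Eno3 changed relative to each of the other members within an array. The ratios reuse the values compared above and are not separate evidence. Averaged over the genotypes, the log2 ratio in tumours minus that in normal tissue was -2.50 for Eno3 over Gpi1, -2.48 for Eno3 over Aldoa and -2.46 for Eno3 over Ldha. Each gave p = 0.00926 in an exact two-sided permutation test over the 12 arrays, the smallest that the arrangements of tissue labels within genotypes allow, and 0.0185 after adjustment over the 6 pairs. With the brighter Gpi1 probe, the ratio moved by -0.04 for Ldha over Gpi1, -0.03 for Ldha over Aldoa and 0.01 for Gpi1 over Aldoa, with adjusted p = 0.843 for each pair. These averages hold values of opposite sign: Gpi1 over Aldoa gave -0.17 in Notch-inactivated and 0.20 in wild type mice, and Ldha over Aldoa gave -0.23 and 0.12. The dimmer Gpi1 probe was not part of these ratios. A ratio within an array shows unequal change and not which member changed.

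By the closeness of their 6 group means after centring, Gpi1 and Ldha lay near each other among the 4964 other named genes tested. Only the brighter Gpi1 probe was ranked. Ldha was 11th for Gpi1, with a root mean square (RMS) difference of 0.0677 log2 units, and the closest genes were Pafah1b1 (0.0437) and Lamtor1 (0.0488). Gpi1 was 10th and Aldoa 20th for Ldha, whose closest gene was Ikbkg (0.0433). Aldoa was 53rd for Gpi1, while Ldha was 54th and Gpi1 104th for Aldoa. The closest to Aldoa were Arl8b (0.0338) and Tpt1 (0.0341). Small ranges make small RMS differences, so this order ranks flat patterns first. For Eno3 the closest were 2 genes of the kallikrein family, Klk1b27 (0.335) and Klk1b3 (0.386), then Car1, a carbonic anhydrase of colon surface cells (0.452), the sialyltransferase St3gal4 (0.455) and Apol9a (0.497). Probes of the near-identical Klk1b genes may read more than 1 of them.

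**Figure D3:**
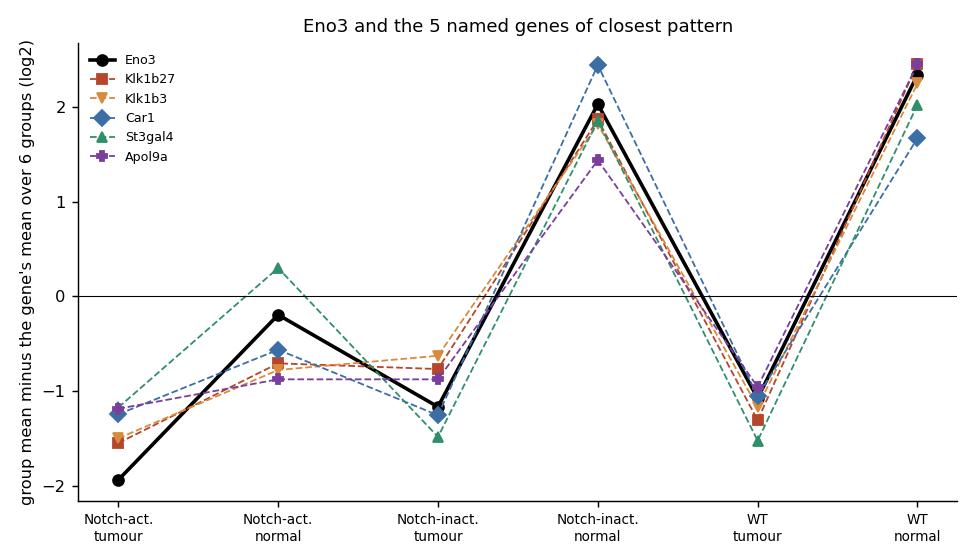
Group means of Eno3 and the 5 closest genes, each centred on its own mean over the 6 groups, in log2 units; lines join the groups only to guide the eye. All 6 genes are highest in normal tissue of wild type or Notch-inactivated mice, and they differ most in Notch-activated normal tissue.

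Markers of colon surface cells and goblet cells were read beside Eno3. The colonocyte list (Car1, Mettl7b and Selenbp1, 3 measured of 6 listed) averaged 9.43 to 10.15 in Notch-activated tumours, 8.06 to 8.09 in Notch-inactivated tumours and 8.0 to 8.99 in wild type tumours, against 10.37 to 10.88, 11.68 to 11.97 and 11.95 to 12.26 in normal tissue of the same genotypes. Its 3 genes fell in wild type and in Notch-inactivated tumours, and Selenbp1 alone fell in Notch-activated tumours. As with Eno3, 2 of its 3 genes were lower in Notch-activated than in wild type normal tissue, where 4.59% of all probes were lower. Car1 was 1 of them (-2.23, limma adjusted p = 0.0077). Unlike Eno3, Selenbp1 and Mettl7b were higher in Notch-activated than in wild type tumours, by 2.62 and 1.45 (limma adjusted p = 1.59e-04 and 0.0201). Car1 was not called between these tumours (-0.19, adjusted p = 0.813). The goblet cell list (Bcas1 and Clca1, 2 of 8) averaged 5.73 to 6.35 in Notch-activated tumours and 6.09 to 8.51 in Notch-activated normal tissue, against 12.61 to 13.16 in the other normal tissue and 8.37 to 10.64 in the other tumours. Bcas1 fell in Notch-inactivated and wild type tumours (-2.39 and -3.07, limma adjusted p = 2.96e-04 and 5.96e-05) and was lower in Notch-activated than in wild type normal tissue (-5.76, adjusted p = 1.21e-05). Clca1, which varied widely between replicate arrays, passed in none of these contrasts, and neither gene was called between tumours and normal tissue of Notch-activated mice, where Eno3 fell. No gene of either list lay at background on both arrays of any group.

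Eno3 is known as the enolase of striated muscle, so muscle markers were read beside it. Actn3, an actinin of fast muscle fibres and the only measured gene of 10 listed, read 5.52 to 5.78 on tumour arrays and 6.02 to 6.49 on normal arrays, close to the background limit. It was called lower in tumours of all 3 genotypes, as Eno3 was, with log2 differences of -0.39 in Notch-activated and -0.44 in wild type mice (limma adjusted p = 0.0363 and 0.0111) and at least 1.57-fold lower in Notch-inactivated tumours (adjusted p = 4.98e-04). In Notch-activated and in wild type tumours 1 of 2 arrays lay at background. It was 0.10 lower in Notch-activated than in wild type normal tissue (-0.10, SE 0.12, adjusted p = 0.706), where Eno3 was 5.74-fold lower. The smooth muscle list (Acta2, Mylk and Synpo2, 3 of 11) averaged 6.71 to 7.48 on tumour arrays and 6.59 to 6.86 on normal arrays, and its genes went opposite ways. Acta2 rose in tumours of each genotype and was at background in Notch-activated and Notch-inactivated normal tissue. Synpo2 fell by 0.67 in Notch-activated, 0.70 in Notch-inactivated and 0.71 in wild type tumours (adjusted p = 0.00221, 4.20e-04 and 3.78e-04), to levels near the background limit, and Mylk rose in Notch-inactivated tumours. None of these 3 genes was called between Notch-activated and wild type normal tissue. The part that these cells have in the Eno3 differences was not tested.

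Tumours also held more signal of stromal and blood cells. Among all probes 12.8% rose in Notch-activated, 25.8% in Notch-inactivated and 24.5% in wild type tumours. Of 5 fibroblast genes measured of 8 listed, 4 rose in Notch-activated tumours, 5 in Notch-inactivated tumours and 4 in wild type tumours, and Col1a1, Col1a2, Col3a1 and Mgp were at background in all normal tissue. The list averaged 8.26 to 9.40 on tumour arrays and 5.73 to 6.02 on normal arrays. All 7 measured myeloid genes of 11 and all 3 endothelial genes of 7 rose in tumours of each genotype. Their list means were 8.01 to 9.12 and 7.35 to 7.91 on tumour arrays, against 5.54 to 6.31 and 5.43 to 5.66 on normal arrays. In Notch-activated tumours 3 of the 5 fibroblast and 4 of the 7 myeloid genes were lower than in wild type tumours. None of the 3 endothelial genes was called there, in a contrast where 11.0% of all probes were lower. The fibroblast list averaged 8.26 to 8.54 in Notch-activated and 8.99 to 9.40 in the other tumours. The myeloid list averaged 8.01 to 8.10 and 8.80 to 9.12. Enterocyte genes (4 measured of 11) averaged 6.14 to 6.97 on tumour arrays and 7.45 to 8.15 on normal arrays. Both erythroid genes measured of 6 rose in Notch-inactivated and wild type tumours and neither was called in Notch-activated tumours, where both were lower than in wild type tumours. Of 4 Paneth cell genes measured of 6, 3 rose in wild type tumours. In Notch-activated tumours 3 were lower than in wild type tumours, beside 11.0% of all probes, the share that also applies to the erythroid genes. In Notch-inactivated normal tissue 3 were higher than in wild type normal tissue, a contrast in which 4.41% of all probes were called. The Paneth list averaged 5.39 to 5.97 in Notch-activated tumours against 9.66 to 10.04 in the other tumours, and 5.44 to 5.47 in Notch-activated, 9.24 to 10.64 in Notch-inactivated and 6.03 to 6.38 in wild type normal tissue. Of 4 proliferation genes measured of 10, 1 rose in Notch-activated tumours and 3 in each of the other genotypes, and 1 of 2 lymphoid genes rose in each. Among the keratins, Krt19 fell by 1.03 in Notch-inactivated and 0.69 in wild type tumours (limma adjusted p = 3.13e-05 and 3.37e-04) and gave -0.05 in Notch-activated tumours (0.771), where it was 1.27 higher than in wild type tumours (3.29e-05). Krt8 fell by 0.34 in Notch-inactivated tumours (adjusted p = 0.0196), and Krt18 rose by 0.59 in wild type tumours (adjusted p = 0.0137). The part of these cells in the smaller falls of Gpi1, Aldoa and Ldha was not tested.

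Of the other genes of glucose entry and glycolysis, 13 were measured (with the members, 17 of 30 considered). In tumours 2 rose and 1 fell in Notch-activated mice, where 12.8% of all probes rose and 13.6% fell. In Notch-inactivated mice 2 rose and 6 fell, against 25.8% and 26.9% of all probes. In wild type mice 2 rose and 4 fell, against 24.5% and 27.1%. The median log2 differences of the 13 genes were -0.01, -0.30 and 0.14, beside -0.02, -0.02 and -0.04 over all probes tested. The one that fell most was the glucose transporter Slc5a1 of the brush border, which the enterocyte list also holds, with log2 differences of -0.85, -1.17 and -2.46 in Notch-activated, Notch-inactivated and wild type mice (limma adjusted p = 0.0105, 6.57e-04 and 6.81e-06). Leaving out single arrays moved these counts: 3 genes were called in Notch-activated mice but 1 without the second normal or the second tumour array, and 8 in Notch-inactivated mice but 5 without the second normal array.

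The 3 enolase genes moved apart in tumours. Eno3 fell in all 3 genotypes, while Eno1, the ubiquitous form, fell in Notch-inactivated mice (-0.54, SE 0.15, limma adjusted p = 0.0109). Eno1 gave 0.22 in Notch-activated mice (adjusted p = 0.297) and 0.14 in wild type mice, and neither Notch genotype's difference was called against that of wild type mice. Eno2, the neuronal form, was at background in all normal tissue and read 5.78 to 6.07 in tumours, at least 1.07-fold higher in Notch-activated, 1.02-fold higher in Notch-inactivated and 1.16-fold higher in wild type tumours (adjusted p = 0.0079, 0.00378 and 0.00107). Such a bound sets the tumour mean against the background limit of each normal array, or against the probe's own signal where that was higher.

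The lactate dehydrogenases moved apart too. Ldhb, the heart form, read 5.89 and 6.28 in Notch-activated tumours, 7.19 and 7.29 in Notch-inactivated tumours and 7.18 and 7.36 in wild type tumours, and was at background in all normal tissue. It was at least 1.23-fold, 2.54-fold and 2.72-fold higher in tumours of these genotypes (limma adjusted p = 0.0305, 3.92e-05 and 3.24e-05), while Ldha fell or did not pass. In Notch-activated tumours Ldhb was 1.18 lower than in wild type tumours (-1.18, SE 0.19, adjusted p = 0.00144). Ldha in the same contrast was 0.31 (adjusted p = 0.131).

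Between the ends of the pathway several genes did not pass in any tumour comparison of a single genotype. Tpi1 (triose phosphate isomerase), Gapdh, Pgk1 (phosphoglycerate kinase), Pgam1 (phosphoglycerate mutase) and Pkm (pyruvate kinase) are among them, and their average differences were -0.01, 0.18, -0.03, 0.00 and 0.24, of which Gapdh's passed (limma adjusted p = 0.0467). The phosphofructokinase Pfkm fell in Notch-inactivated (-0.41, adjusted p = 0.0189) and wild type tumours (-0.69, adjusted p = 0.00116), and Pfkl fell in Notch-inactivated tumours (-0.32, adjusted p = 0.0183). Hexokinase Hk1 was at background in Notch-inactivated and wild type tumours, at least 1.52-fold and 1.49-fold lower than in normal tissue (adjusted p = 0.00174 and 0.00107). The fructose transporter Slc2a5 was at least 1.16-fold and 1.06-fold lower in the same tumours (adjusted p = 6.54e-04 and 0.00177).

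In tumours with active Notch, 3 of the 13 other genes were higher and 1 lower than in wild type tumours. Among all probes 11.8% were higher and 11.0% lower in this contrast. Slc5a1 was higher by 1.38 and Eno1 by 0.69 on the log2 scale (limma adjusted p = 6.78e-04 and 0.0072), Hk1 was at least 1.37-fold higher (adjusted p = 0.00765), and Ldhb was the one that was lower. The median of the 13 was 0.06, beside 0.02 over all probes. Against Notch-inactivated tumours 4 were higher, Pgk1 among them (0.56, adjusted p = 0.0221), and 1 was lower, beside 11.7% and 11.5% of all probes. In normal tissue active Notch went with more Eno1 (0.61, adjusted p = 0.0287) and less Pfkm (-0.60, adjusted p = 0.0145) than in wild type tissue, and both calls were lost without the second wild type array or either Notch-activated array. Between Notch-inactivated and wild type normal tissue 1 gene was called, Slc5a1 (-1.16, adjusted p = 0.00895), and none without the second array of either group. In tumours the count against wild type was 2 without the first Notch-activated array, and that against Notch-inactivated tumours was 3 without it or without the second Notch-inactivated array. Over all arrays no gene of the list was called between Notch-inactivated and wild type tumours, where 0.228% of all probes were. Between normal tissue of these genotypes 4.41% of all probes were called.

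**Figure D4:**
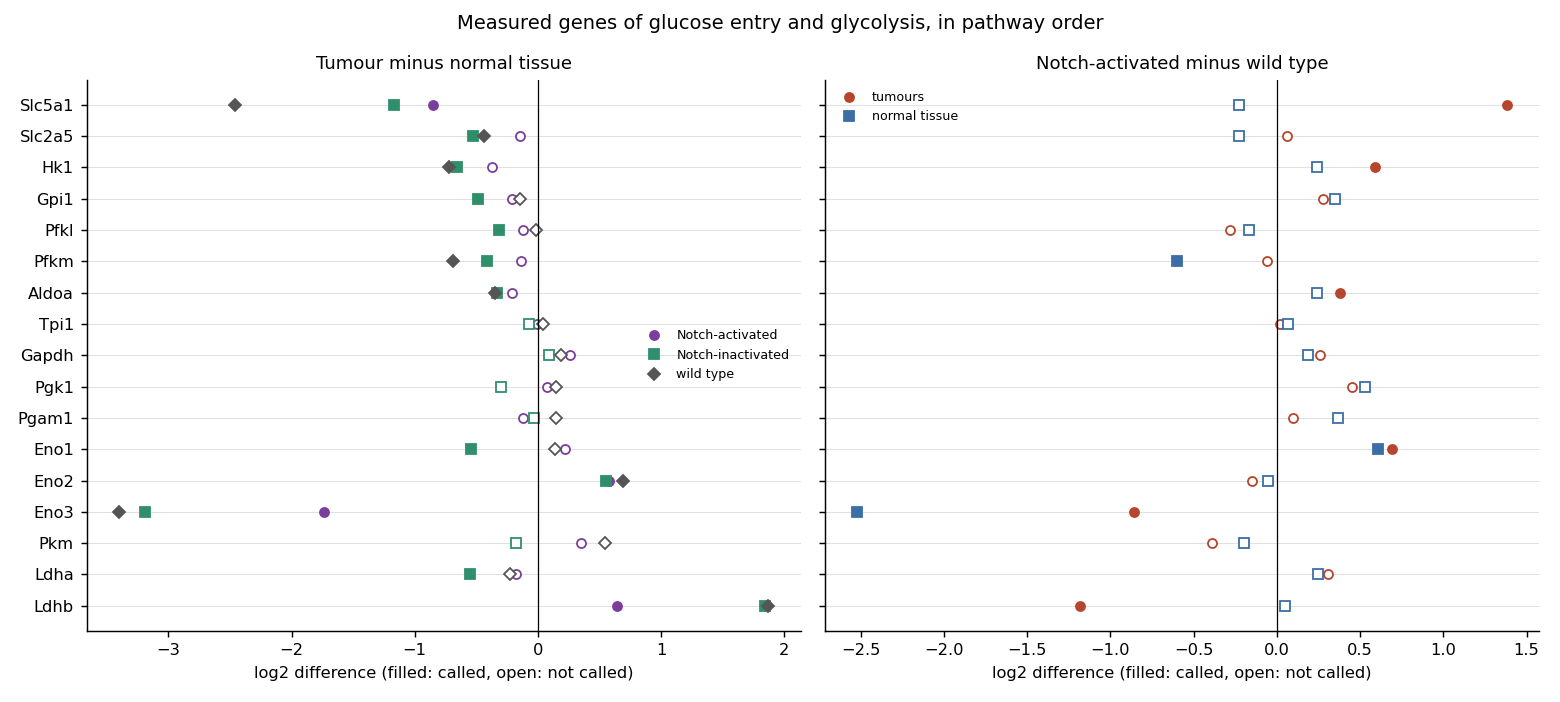
Log2 differences of 17 measured genes of glucose entry and glycolysis in pathway order, for tumour minus normal tissue by genotype (left) and Notch-activated minus wild type by tissue (right). Filled symbols passed the test, and for Hk1, Slc2a5, Eno2 and Ldhb the fitted value is shown where 1 side lay at background. Eno3 and Slc5a1 lie farthest to the left in Notch-inactivated and wild type tumours, and Ldhb lies farthest to the right.

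Genes around the pathway were few on these arrays. Of the genes that control glycolysis and the fate of pyruvate, 5 were measured of 21 listed. In tumours 1 fell in Notch-activated, 4 in Notch-inactivated and 3 in wild type mice, with none higher. Among all probes 13.6%, 26.9% and 27.1% fell in tumours of these genotypes. Pfkfb4, which makes and removes the activator of phosphofructokinase, fell by 0.59, 1.38 and 1.74 in these genotypes (limma adjusted p = 0.0354, 1.72e-04 and 3.97e-05). Mpc2, a subunit of the mitochondrial pyruvate carrier, fell by 0.84 and 1.08 in Notch-inactivated and wild type tumours (adjusted p = 2.95e-04 and 6.15e-05), and was 0.98 higher in Notch-activated than in wild type tumours (adjusted p = 3.53e-04). Pdhb, a subunit of pyruvate dehydrogenase, fell by 0.70 and 1.04 in Notch-inactivated and wild type tumours (adjusted p = 0.0171 and 0.00218).

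Of the pentose phosphate pathway, which branches off after the first step of glycolysis, 3 genes were measured, and none was called between tumour and normal tissue in any single genotype. Active Notch went with more of 2 of them: Pgd was 0.58 higher in tumours and 0.63 higher in normal tissue than in wild type mice (limma adjusted p = 0.0239 and 0.0359), and Tkt 0.49 and 0.71 higher (adjusted p = 0.00189 and 5.98e-04). Among all probes 11.8% were higher in Notch-activated than in wild type tumours, and 4.02% in normal tissue. Of the hypoxia response list 4 genes were measured of 20. In tumours none rose, while 2 fell in Notch-activated, 2 in Notch-inactivated and 1 in wild type mice. The shares of all probes that fell were 13.6%, 26.9% and 27.1%. Egln1, an oxygen sensor that marks hypoxia-inducible factors for destruction, fell by 0.33, 0.55 and 0.38 (adjusted p = 0.0394, 0.00159 and 0.0114). Pck1, an enzyme of gluconeogenesis, was the only gene measured of 9 on the list for gluconeogenesis and fructose. It was called lower in Notch-activated tumours (limma adjusted p = 0.0312), where 1 of 2 arrays lay at background. In Notch-inactivated and wild type tumours it was at least 1.45-fold and 2.37-fold lower. No glycogen gene passed the filter.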

How the data were processed

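Total RNA of 12 samples was extracted with Trizol, cleaned on RNeasy columns and labelled as biotinylated cRNA, per the labels. The deposited table holds 1 value per probe and array. These log2 values, as the authors deposited them, appear quantile normalized, since the sorted columns differ by at most 5.43e-04. No source used here states the log base, the background correction or the software. A companion table has 24 columns that could not be tied to samples and were not analysed here, so the planned normalization from signals was not run.

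Names were read from the identifiers: numbers after 1 leading zero matched a gene of RefSeq's GRCm38.p6 table in 81.1% of cases, against 40.9% after a shift of 7. After 2 zeros, as for Gpi1, the shares were 84.8% and 41.3%. Ribosomal protein probes had a median of 13.2 after 1 zero and 6.53 after 2, so the second class is less firm. After leaving out 351 control probes, 21891 of 46277 probes (47.3%) passed the background limit on at least 2 arrays. Where a gene had several, the brightest stood for it in counts of genes, ratios and rankings. In each contrast members are given by every probe.

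Each probe was fitted with limma 3.58.1 (R 4.3.3; lmFit, eBayes) with 6 group means over 12 arrays, which left 6 residual and 3.78 prior degrees of freedom. Calls were made at a Benjamini-Hochberg adjusted p under 0.05 over all tested probes within each contrast. Script behaviour was tested on simulated data. The labels do not say whether arrays of the same replicate number share animals, and the main fit held no pairing. Over 15 pairs of groups, deviations of same-numbered arrays correlated at r between -0.383 and 0.347 (median 0.0137), with 2 over 0.1. With 2 arrays a group these correlations cannot settle whether samples were paired. Ratios of members were tested by exact permutation of tissue within genotype. The members and all gene lists were chosen with earlier results of these data known. Of other listed genes, the text names up to 3 called genes of largest difference in each direction per list and contrast, and any measured gene of glycolysis; 1 gene of that list is not reported here and enters none of its counts. Genes of like pattern are the 5 with the smallest RMS difference.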

Additional observations from a re-analysis of the deposited data

Results flagged for a closer look

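Among the members and the listed pathway genes, for 6 the tumour difference was itself different between Notch-activated and wild type mice by the interaction contrast in limma, in which 12.9% of all probes were called. They were 1 of 4 members, 2 of 13 other glycolysis genes, 2 of 5 genes controlling glycolysis and the 1 measured gene of the gluconeogenesis list. None of the 3 pentose phosphate and 4 hypoxia response genes was called. The contrast is the tumour minus normal difference in Notch-activated mice less the same in wild type mice, so a positive value for a gene that fell means a smaller fall with active Notch. Eno3 gave 1.66 on the log2 scale (adjusted p = 0.00348), with tumour differences of -1.74 in Notch-activated and -3.40 in wild type mice. Slc5a1 gave 1.61 (adjusted p = 0.0046). Pfkfb4 gave 1.15 (adjusted p = 0.016) and Mpc2 gave 1.03 (adjusted p = 0.00435). Pck1 gave 0.95 (adjusted p = 0.039) and Ldhb gave -1.23 (adjusted p = 0.0138), but Pck1 was at background in wild type tumours and Ldhb in all normal tissue, so their fitted sizes are not bounded. Eno3 differed from Slc5a1 in where the groups parted: its Notch-activated and wild type normal tissue differed by -2.52, against -0.23 for Slc5a1, while in tumours the differences were -0.86 for Eno3 and 1.38 for Slc5a1. Groups of 2 arrays are too small for a check of single outlying arrays.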

How the results depend on the processing

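No member reversed its direction where it was called. For the lists only the number of genes called was compared, without regard to direction. Over the 5 member probes and 12 contrasts, 1143 results under other settings kept their call, 6 gained one and 22 lost one; the cause was not tested. Members called between wild type tumours and normal tissue numbered 2, and 1 when only the compared groups were fitted (1 to 2 leaving out single arrays). Between Notch-activated and wild type tumours they numbered 2, and 1 after cyclic loess and 1 with only the compared groups (1 to 2 leaving out arrays). Between Notch-activated and Notch-inactivated tumours they numbered 2, and 1 after cyclic loess and 1 with only the compared groups (0 to 2 leaving out arrays). In Notch-activated against wild type normal tissue the range leaving out arrays was 1 to 2. With the mean over both Gpi1 probes, Gpi1 was called lower in wild type tumours (-0.37, adjusted p = 0.0167) and higher in Notch-activated than in wild type (0.44, 0.0146) or Notch-inactivated tumours (0.48, 0.00929).

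Counts of other glycolysis genes called ranged, leaving out single arrays, from 5 to 9 for Notch-inactivated and 1 to 3 for Notch-activated tumours against normal tissue, 0 to 2 for Notch-inactivated and 0 to 3 for Notch-activated against wild type normal tissue, 0 to 2 for Notch-activated against Notch-inactivated normal tissue, 2 to 5 for Notch-activated against wild type tumours, 3 to 5 for Notch-activated against Notch-inactivated tumours, and 0 to 1 and 1 to 3 for the interaction contrasts of Notch-inactivated and Notch-activated mice. With a limit exceeded on at least 6 arrays, 1 gene was called between Notch-activated and Notch-inactivated normal tissue, against 2 in the main fit. With the replicate number as a block, Aldoa passed between Notch-activated and Notch-inactivated tumours (0.30, adjusted p = 0.0495), and no other call of a member changed.

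Over all probes, calls for tumours of Notch-activated mice numbered 5765, and 2663, 3244 and 2685 without the second normal, the first tumour or the second tumour array. Only with the compared groups fitted, calls were 239 in place of 966 (Notch-inactivated against wild type normal tissue), 1365 in place of 2116 (Notch-activated against Notch-inactivated normal tissue), 0 in place of 50 (Notch-inactivated against wild type tumours) and 66 in place of 167 (Notch-inactivated interaction). The dimmest results, Eno2, Slc2a5, Hk1 and Ldhb, are limited by background.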
